A study of Mus musculus with 28 samples.

Results

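The 6 genes described here are the autosomal members of the Gata family, *Gata2*, *Gata3*, *Gata4*, *Gata5* and *Gata6*, together with *Tal1*, the gene of a helix-loop-helix protein that works with the blood-forming GATA factors. They were taken by name from 55450 annotated mouse genes by a rule that uses no measured value, although earlier results of these data were known when the genes were chosen. *Gata1*, which lies on the X chromosome, was not included. Histone H3 trimethylated at lysine 4 (H3K4me3) and at lysine 27 (H3K27me3) was profiled by CUT&RUN (CnR), in which an antibody directs a nuclease to cut out the DNA that carries a mark, in nuclei of the 2 main types of striatal medium spiny neuron (MSN). Adult C57BL/6J mice of both sexes carried R26-CAG-LSL-Sun1-sfGFP, a nuclear envelope tag that Cre recombinase switches on, with A2a-cre for the A2a (indirect pathway) MSNs or Drd1-cre for the D1 (direct pathway) MSNs. The tagged nuclei were captured on anti-GFP beads, so the target was every nucleus that the Cre driver had ever marked. Untagged nuclei may also be among those captured. The labels name no further allele and no treatment for these mice.

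For the antibodies used here each MSN type had 2 replicates, and the files hold 1 list per type and mark in which both replicates were pooled. With the Abcam H3K4me3 antibody 22551 peaks were listed for A2a and 20080 for D1. With the Active Motif H3K27me3 antibody 60191 broad islands holding 22091634 reads were listed for A2a, against 45760 islands holding 7878685 reads for D1, so the A2a list was the larger. Library depth cannot be read from the lists, no spread between mice can be given, and no difference between the MSN types was tested. Intervals on read counts are 95% exact Poisson intervals and cover counting error only. The source name of the D1 H3K27me3 samples reads A2a, while their title and cell type read D1, and they were used as D1. In that D1 list the A2a marker *Adora2a*, an adenosine receptor, lay in an island of 45 kb, and it had no promoter island in the A2a list.

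GATA factors are zinc finger proteins that bind the DNA motif for which they are named. *Gata2* and *Gata3* serve blood stem cells and T cells, and with *Tal1* they also set the identity of GABA neurons in the midbrain, brain stem and spinal cord. *Gata4*, *Gata5* and *Gata6* serve the heart, gut, liver and other organs of mesoderm and endoderm. H3K27me3 is laid down by Polycomb repressive complex 2 and is typical of developmental genes that a cell lineage keeps silent, and H3K4me3 marks the promoters of active or primed genes. Striatal MSNs are GABA neurons of forebrain origin.

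An H3K27me3 island lay over the promoter of 6 of the 6 genes in A2a and of 6 of 6 in D1, where the promoter runs from 2 kb upstream to 1 kb downstream of the transcription start site (TSS). Over all 21938 protein-coding genes the share was 21.7% in A2a and 15.3% in D1. The islands were long and dense. Of the 6, 5 had a promoter island of at least 20 kb in A2a and 5 in D1, beside 2.49% and 1.34% of all protein-coding genes. The median promoter island of the 6 genes measured 27.5 kb in A2a and 23.0 kb in D1, against medians of 6.20 kb and 4.80 kb over all protein-coding genes with such an island. An H3K4me3 peak lay at the promoter of 1 of the 6 genes in each MSN type, *Tal1*, beside 58.2% of protein-coding genes in A2a and 55.7% in D1. The other 5 had an island and no peak, as had 12.1% of protein-coding genes in A2a and 9.71% in D1, and 0 of the 6 had neither mark, beside 29.7% and 34.5%. Among the protein-coding genes that had a promoter island, 44.0% in A2a and 36.4% in D1 also had a promoter peak.

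**Figure D1:**
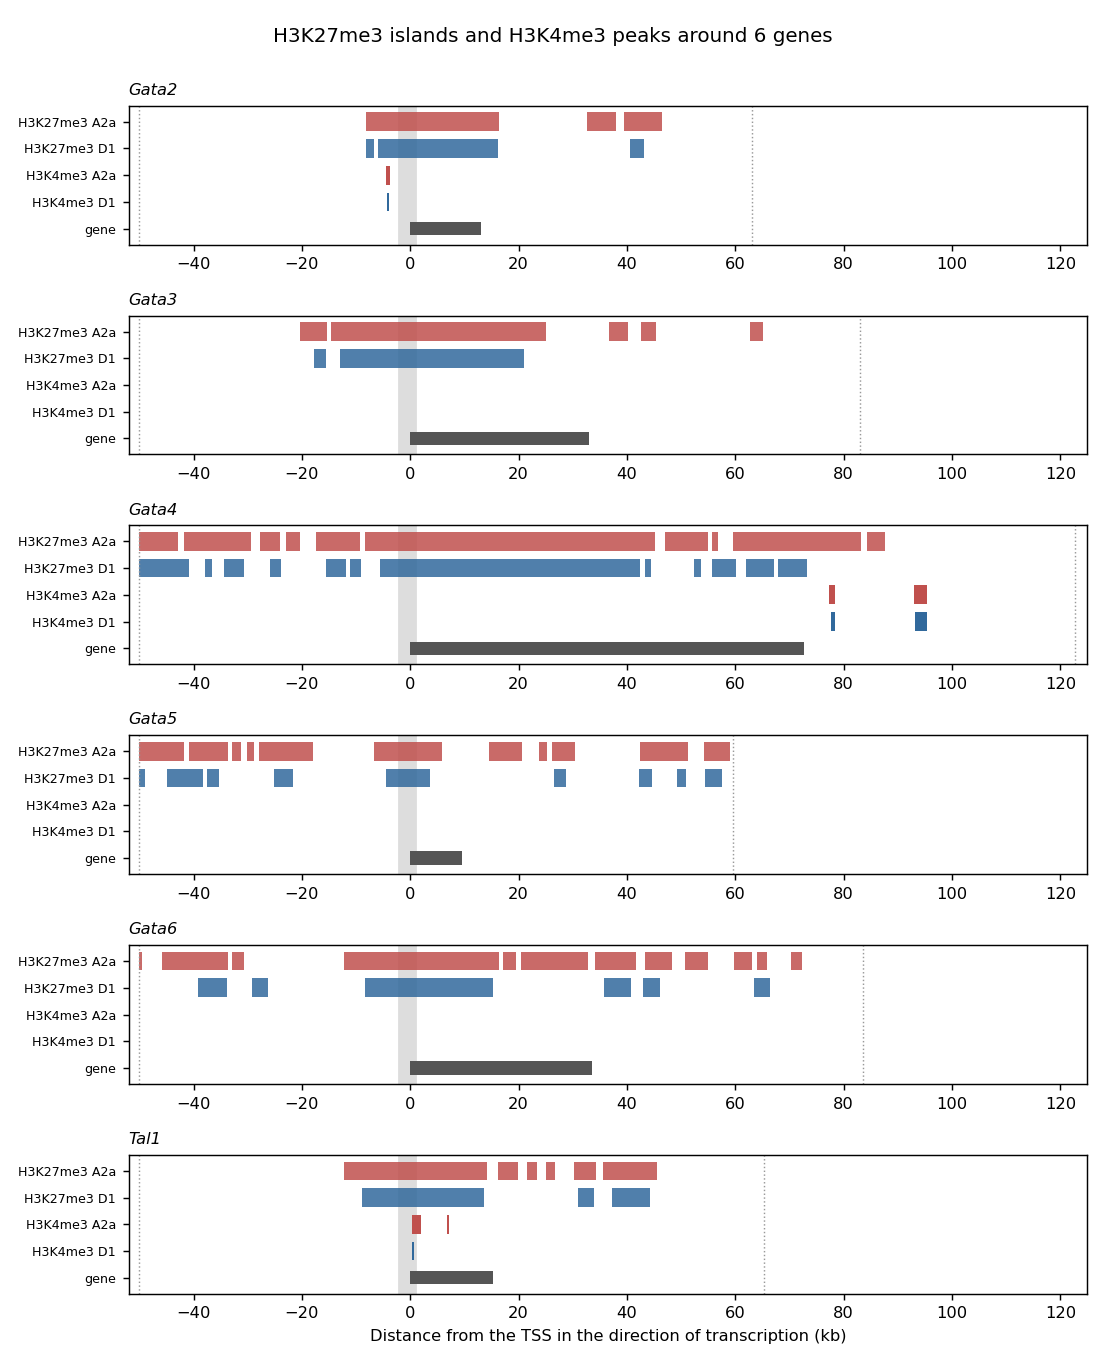
H3K27me3 islands and H3K4me3 peaks of A2a (red) and D1 (blue) MSNs around each of the 6 genes, with distance from the TSS in kb in the direction of transcription on the horizontal axis, the gene as a dark bar, the promoter shaded and dotted lines 50 kb beyond each end of the gene. One long island spans each TSS in both MSN types, and H3K4me3 peaks lie inside it at *Tal1* and *Gata2*.

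*Gata2* (chr6:88193891-88207032, plus strand, GRCm38) lay wholly inside its island in both MSN types. The A2a island, chr6:88185801-88210200, measured 24.4 kb and held 3831 reads (3711 to 3954), or 157 reads per kb. The D1 island, chr6:88188001-88210000, measured 22.0 kb and held 1740 reads (1659 to 1824), or 79.1 reads per kb. Both islands thus ran past the 3′ end of the gene, by 3.17 kb in A2a and 2.97 kb in D1. They differed mainly at the upstream edge, where a gap of 800 bp in D1 split off an island of 1.40 kb with 65 reads that began at the same base as the A2a island.

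Of the sequence inside that island, the 250 bases before the annotated start of *Gata2* and the 200 bases around the summit of an H3K4me3 peak upstream of it are shown, because the first had no H3K4me3 peak and the second had one in both MSN types. Both are given 5′ to 3′ on the plus strand of GRCm38, in lower case with each CpG dinucleotide in capitals. The promoter is from the RefSeq promoter table (GRCm38.p6), and the peak was read from the genome.
*Gata2* promoter, chr6:88193641-88193890: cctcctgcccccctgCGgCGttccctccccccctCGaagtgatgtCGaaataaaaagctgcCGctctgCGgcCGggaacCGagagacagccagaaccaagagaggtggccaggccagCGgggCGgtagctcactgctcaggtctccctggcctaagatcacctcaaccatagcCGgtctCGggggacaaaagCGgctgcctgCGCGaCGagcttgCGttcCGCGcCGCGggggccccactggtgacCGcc
*Gata2* upstream peak, chr6:88189667-88189866: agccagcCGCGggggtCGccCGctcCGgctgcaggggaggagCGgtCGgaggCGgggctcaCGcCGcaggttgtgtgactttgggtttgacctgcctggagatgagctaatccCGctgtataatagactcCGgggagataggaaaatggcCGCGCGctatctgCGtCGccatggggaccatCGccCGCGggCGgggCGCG
The *Gata2* promoter held 22 CpGs, against a median of 6 over 32851 promoters of the same length, and the peak window held 23, against a median of 8 around 22515 A2a H3K4me3 summits. Thus both stretches were rich in CpG and lay entirely in the H3K27me3 islands of both MSN types, and only the second had an H3K4me3 peak. The GATA hexamer searched for was AGATAA on either strand, including the forms with T as the first base, G as the last base or both. It occurred 2 times in the peak window and 0 times in the promoter. At least 1 such hexamer was found in 17.2% of summit windows and 26.5% of promoters, and a match to letters is not a bound site.

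The upstream H3K4me3 peak of *Gata2* lay 3.68 to 4.47 kb before the TSS in A2a, where it measured 787 bp with a fold enrichment of 8.21 and a −log10 q of 24.8. In D1 it measured 428 bp, with a fold enrichment of 4.56 and a −log10 q of 7.61. The D1 peak lay entirely within the A2a peak, and the summits were 77 bp apart. By −log10 q these peaks stood at percentile 35.9 of the A2a list and 15.7 of the D1 list and thus below the median peak. By fold enrichment the A2a peak stood at percentile 69.96, whereas the D1 peak stood at percentile 25.7. Each lay wholly inside the H3K27me3 island of its own MSN type, as did 12.7% of all peaks in A2a and 7.17% in D1. The annotation places the promoter of *Gm38708*, a lincRNA gene on the opposite strand, at this position, so the peak is not at the annotated promoter of *Gata2* itself. No other H3K4me3 peak lay within 50 kb of *Gata2*.

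*Gata3* (chr2:9857078-9890034, minus strand) had an island that covered its upstream flank and the 5′ part of the gene. In A2a the island, chr2:9865001-9904600, measured 39.6 kb with 7377 reads (7210 to 7547), or 186 reads per kb, and covered 76.0% of the gene. In D1 the island, chr2:9869001-9903000, measured 34.0 kb with 3234 reads (3123 to 3347), or 95.1 reads per kb, and covered 63.8%. The 3′ end of the gene lay outside the island in both MSN types. Both islands also reached over the starts of *Gm13256*, *4930412O13Rik* and *9230102O04Rik*, so the island was shared with 3 neighbours. No H3K4me3 peak lay within 50 kb of the gene, and the nearest was 157 kb from the TSS in each list.

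The RefSeq promoter of *Gata3* lies 11.4 kb inside the longest annotated form, on the minus strand at chr2:9878601-9878850, and is shown as a CpG-rich promoter in the middle of the island with CpGs in capitals.
*Gata3* promoter, chr2:9878601-9878850: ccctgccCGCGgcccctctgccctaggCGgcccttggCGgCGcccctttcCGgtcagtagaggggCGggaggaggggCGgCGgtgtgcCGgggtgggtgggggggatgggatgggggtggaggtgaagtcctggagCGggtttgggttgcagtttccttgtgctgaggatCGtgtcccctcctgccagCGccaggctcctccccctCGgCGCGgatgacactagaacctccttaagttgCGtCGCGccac
It held 19 CpGs and no GATA hexamer, and 70.0% of its bases were G or C, against a median of 52.4% over all promoters. Such sequence commonly carries H3K4me3 where a gene is active, and here it lay entirely in the H3K27me3 island in A2a and D1 and had no peak in either.

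*Gata4*, *Gata5* and *Gata6*, the heart and endoderm genes, had H3K27me3 islands without an H3K4me3 peak at the promoter. *Gata4* (chr14:63198922-63271692, minus strand) had the longest island of the 6 in both lists. In A2a it measured 53.4 kb (chr14:63226601-63280000) with 9973 reads (9778 to 10171), or 187 reads per kb. In D1 it measured 48.0 kb (chr14:63229201-63277200) with 4561 reads (4430 to 4695), or 95.02 reads per kb. By reads these islands stood at percentile 99.9 of each list. The promoter island held 4 of the 5 annotated *Gata4* starts in each MSN type, whereas the islands of the other 5 genes held every start. The remaining start, 58.1 kb into the gene, lay in a separate island of 4.40 kb with 157 reads in D1 and in no island in A2a.

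*Gata5* (chr2:180325133-180334699, minus strand) had the shortest and thinnest island of the 6. In A2a it measured 12.6 kb (chr2:180328801-180341400) with 1438 reads (1365 to 1514), or 114 reads per kb. In D1 it measured 8.20 kb (chr2:180331001-180339200) with 499 reads (456 to 545), or 60.9 reads per kb. It also covered the start of *Gata5os*, an antisense transcript, in both lists. The nearest H3K4me3 peak was 60.8 kb from the TSS in each MSN type.

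*Gata6* (chr18:11052064-11085635, plus strand) had the densest island of the 6. The A2a island measured 28.6 kb (chr18:11039801-11068400) with 5517 reads (5372 to 5665), or 193 reads per kb. The D1 island measured 23.6 kb (chr18:11043801-11067400) with 2511 reads (2414 to 2611), or 106 reads per kb. Among all promoter islands of protein-coding genes these densities stood at percentile 99.3 in A2a and 99.2 in D1. Islands covered 92.2% of the *Gata6* gene in A2a, where 2 further islands of 2.40 and 12.2 kb lay in its 3′ part. In D1 no island lay there, and 45.7% of the gene was covered.

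*Tal1* (chr4:115056426-115071755, plus strand) was the only one of the 6 with both marks at its promoter, beside 9.54% of protein-coding genes in A2a and 5.57% in D1. Its A2a island (chr4:115044201-115070600) measured 26.4 kb with 3779 reads (3659 to 3901), or 143 reads per kb. Its D1 island (chr4:115047601-115070000) measured 22.4 kb with 1580 reads (1503 to 1660), or 70.5 reads per kb. In length and density the *Tal1* island thus lay among those of the Gata genes, above *Gata5* in both lists. The islands ended 14.2 kb past the TSS in A2a and 13.6 kb past it in D1, short of the 3′ end of the gene, which is 15.3 kb long.

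The H3K4me3 peak of *Tal1* was weak, and it lay downstream of the annotated TSS. In A2a it spanned 382 to 2068 bp past the TSS (chr4:115056808-115058494), with a summit at 912 bp, a fold enrichment of 4.71 and a −log10 q of 11.6. In D1 it spanned 318 to 713 bp (chr4:115056744-115057139), with a summit at 450 bp, a fold enrichment of 3.64 and a −log10 q of 5.29. The A2a peak therefore measured 1.69 kb and the D1 peak 396 bp, and they shared 332 bp. By −log10 q the peaks ranked at percentile 21.6 of the A2a list and 7.13 of the D1 list. The A2a peak held the starts of 2 shorter *Tal1* transcripts, 1.01 and 1.39 kb past the TSS, and the D1 peak held none. A second A2a peak, of 403 bp with a fold enrichment of 4.30 and a −log10 q of 7.13, lay entirely in a coding exon 6.71 to 7.11 kb past the TSS and had no D1 counterpart. With nuclei pooled, both marks in 1 place cannot be told apart from each mark in a different set of nuclei, and a peak in few nuclei cannot be told apart from a weak peak in many.

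The pair of *Tal1* promoters in the RefSeq table is shown because the A2a peak separates them. They are given 5′ to 3′ on the plus strand with CpGs in capitals.
*Tal1* promoter at the annotated start, chr4:115056176-115056425: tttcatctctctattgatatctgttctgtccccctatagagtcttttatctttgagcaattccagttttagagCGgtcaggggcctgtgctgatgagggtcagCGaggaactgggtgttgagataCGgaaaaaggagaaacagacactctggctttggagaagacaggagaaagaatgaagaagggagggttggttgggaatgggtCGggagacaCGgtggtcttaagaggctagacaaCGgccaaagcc
*Tal1* promoter at the downstream start, chr4:115057561-115057810: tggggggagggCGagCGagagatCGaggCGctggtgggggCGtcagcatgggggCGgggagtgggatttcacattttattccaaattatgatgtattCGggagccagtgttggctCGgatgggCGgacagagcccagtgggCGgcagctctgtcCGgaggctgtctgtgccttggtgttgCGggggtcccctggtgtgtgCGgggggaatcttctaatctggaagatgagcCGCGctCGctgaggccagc
The first held 6 CpGs, the median of all promoters, and 1 GATA hexamer, and it lay outside the peaks of both MSN types. The second held 16 CpGs and no GATA hexamer, lay 100% inside the A2a peak and 0% inside the D1 peak. Both lay entirely inside the H3K27me3 islands. The E-box CANNTG, the motif of helix-loop-helix proteins, was in neither, and it was found in 66.2% of promoters. The table held 6 promoters of 4 of the 6 genes.

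**Figure D2:**
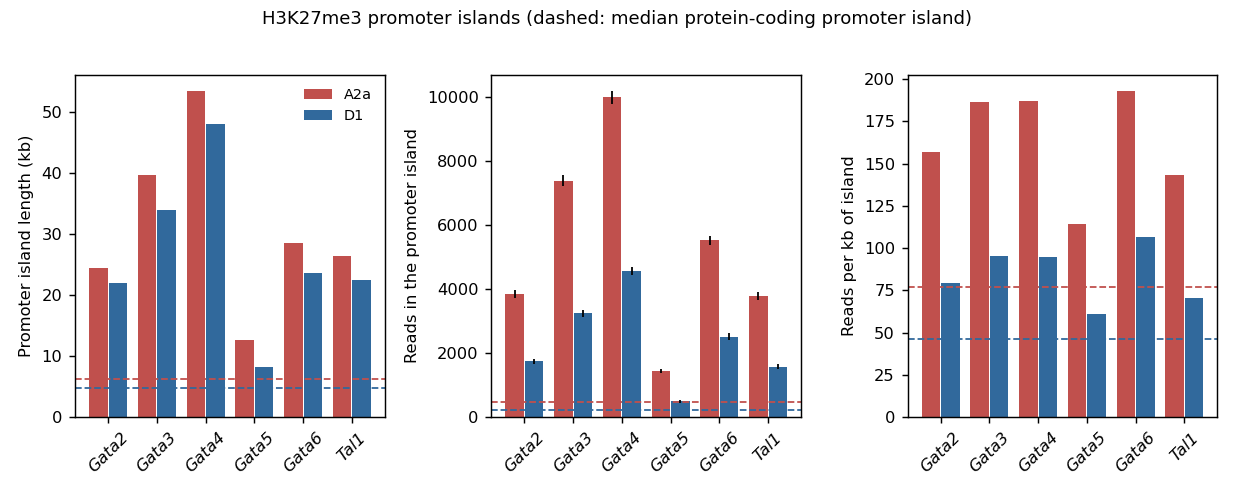
Length in kb, reads with 95% exact Poisson intervals, and reads per kb of the promoter H3K27me3 island of each of the 6 genes, with 1 bar per MSN type from a list that pools 2 replicates and dashed lines at the median promoter island of protein-coding genes in A2a (red) and D1 (blue). Each A2a bar is taller than its D1 bar, *Gata4* has the longest island (53.4 and 48.0 kb) and *Gata5* the shortest (12.6 and 8.20 kb).

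In order of A2a island length the genes ran *Gata4*, *Gata3*, *Gata6*, *Tal1*, *Gata2* and *Gata5*, and the order was the same in D1. With islands within 5 kb of each other merged, the order was no longer shared. In A2a *Gata4* then measured 244.6 kb, *Gata6* 84.6 kb, *Tal1* 57.8 kb, *Gata3* 45.4 kb, *Gata2* 24.4 kb and *Gata5* 12.6 kb. In D1 *Gata4* measured 60 kb, *Gata3* 38.8 kb, *Gata2* 24.2 kb, *Gata6* 23.6 kb, *Tal1* 22.4 kb and *Gata5* 8.20 kb. The order by density differed: *Gata6*, *Gata4* and *Gata3* lay at 193, 187 and 186 reads per kb in A2a, and *Gata2*, *Tal1* and *Gata5* at 157, 143 and 114. In D1 *Gata6*, *Gata3* and *Gata4* lay at 106, 95.1 and 95.02 reads per kb, and the other 3 followed in the same order as in A2a. Set per kb, the Poisson intervals of *Gata6*, *Gata4* and *Gata3* overlapped in A2a, as did those of *Gata3* and *Gata4* in D1, and the intervals of all other neighbours in these orders did not. They leave out the spread between mice. The median over all promoter islands of protein-coding genes was 76.7 reads per kb in A2a and 46.3 in D1, below each of the 6 in its own list.

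H3K27me3 also covered the surroundings of these genes, to a different extent at each. In the window of a gene and 50 kb on either side, islands covered between 32.3% (*Gata2*) and 71.4% (*Gata4*) in A2a. In D1 the coverage ran from 23.0% (*Gata2*) to 50.5% (*Gata4*). The median window of a protein-coding gene was covered to 3.87% in A2a and 1.20% in D1. Coverage was larger in A2a at 6 of the 6 genes, and the A2a list covers more of the genome altogether. Island reads were also summed over all islands that touched the window, each counted whole. At *Gata3* the promoter island held 88.4% of these reads in A2a and 94.6% in D1, so the mark was concentrated at the gene. At *Gata5* the promoter island held 23.1% and 29.8%, and most reads of the islands so counted lay outside it. They include an A2a island of 23.2 kb and 1711 reads at *B230312C02Rik*. That island ran from 41.7 to 64.9 kb upstream of the TSS and thus past the edge of the window.

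The D1 island lay wholly inside the A2a island at 6 of the 6 genes, beside 58.3% of all protein-coding genes with a D1 promoter island and 57.6% of those whose D1 island measured at least 8 kb. The A2a island was 1.11 times as long as the D1 island at *Gata2* and at *Gata4*, 1.16 times at *Gata3*, 1.18 times at *Tal1* and 1.21 times at *Gata6*. At *Gata5* it was 1.54 times as long, with 2.2 kb added on each side. The edges moved by 0.20 kb (*Gata2*, downstream) to 4 kb (*Gata3*, downstream, and *Gata6*, upstream), and the islands are built in steps of 200 bp. These length ratios hold for the islands as deposited, since merging lengthened the A2a islands of *Gata4*, *Gata6* and *Tal1* far more than the D1 islands. The A2a list held 2.80 times the reads of the D1 list, and its part in the longer A2a islands was not tested.

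To set the MSN types beside each other, island reads were summed over each region formed by touching A2a and D1 islands. Reads outside islands are not listed, so the 2 sums need not cover the same bases. At *Gata5* the A2a reads came from 12.6 kb of island and the D1 reads from 8.2 kb. The A2a to D1 ratio was 2.12 at *Gata2* (95% exact binomial interval 2.01 to 2.25), 2.28 at *Gata3* (2.19 to 2.38), 2.16 at *Gata4* (2.09 to 2.24), 2.197 at *Gata6* (2.095 to 2.304) and 2.39 at *Tal1* (2.25 to 2.54). *Gata5* had the highest ratio of the 6, at 2.88 (2.60 to 3.20), which stood at percentile 68.9 of the shared regions. Over 28726 regions shared by both lists the median ratio was 2.33, with quartiles of 1.79 and 3.15, so all 6 genes lay between the quartiles. Among the 2428 shared regions with at least 500 D1 reads the median was 2.15, and there the ratios of the genes other than *Gata5* stood between percentiles 47.2 and 71.7. With 499 D1 reads, *Gata5* is not in that set. In reads per kb of island, again over the median of shared regions, *Gata5* no longer led, at 1.05 against 1.14 at *Gata2*, 1.13 at *Tal1*, 1.11 at *Gata4*, 1.09 at *Gata3* and 1.01 at *Gata6*. In plain reads the lower end of the *Gata5* interval lay above the upper end of the others, and whether that exceeds the spread between mice was not tested.

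**Figure D3:**
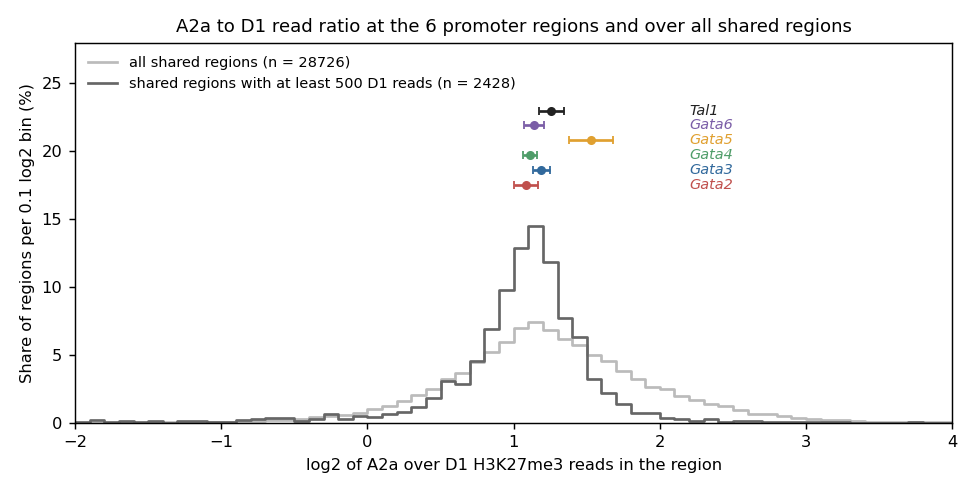
Lines give the percent of shared regions in each bin of the log2 A2a to D1 ratio of H3K27me3 reads, for all shared regions and for those with at least 500 D1 reads, and points give the 6 genes with 95% exact binomial intervals for counting error at arbitrary heights. As plain ratios, 5 of the 6 genes lie between 2.12 and 2.39, near the medians of 2.33 and 2.15, and *Gata5* lies at 2.88.

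Among genes whose bodies came within 50 kb, a promoter H3K4me3 peak without an island marked *Taf3* near *Gata3*, *Stil* and *Cyp4x1* near *Tal1*, and *Fdft1*, a gene of sterol synthesis, near *Gata4*. The peak of *Stil*, a centriole gene that adjoins *Tal1*, was enriched 11.1-fold in A2a and 10.3-fold in D1, and thus stood well above the *Tal1* peaks of 4.71 and 3.64. *Neil2*, a DNA repair gene 77.8 kb from the *Gata4* TSS, had a promoter peak in both MSN types, enriched 6.66-fold in A2a and 4.49-fold in D1. Its promoter lay in an A2a island of 23.8 kb with 1607 reads, and had no island in D1. *Pdzk1ip1* near *Tal1* had an island of 4.20 kb with 440 reads in A2a and of 3 kb with 163 reads in D1, with no peak. Of the neighbours just named, *Neil2* in A2a carried both marks. *Gm38708* beside *Gata2*, described above, carried both in each MSN type.

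Genes that act with these factors in other tissues were described in lists, as were other genes whose proteins carry a GATA-type zinc finger. These 4 lists are called partner lists below, although the zinc finger genes were not chosen as partners. In the list of 20 GATA cofactors and blood-forming factors, 15 had a promoter island in A2a and 14 in D1, with a median island of 11.8 and 6.10 kb. The share of all protein-coding genes with an island was 21.7% and 15.3%. A promoter peak marked 12 of the 20 in A2a and 9 in D1, beside 58.2% and 55.7% of protein-coding genes. Both marks were found at 8 and 5 of the 20, beside 9.54% and 5.57%, and no difference was tested. The longest islands were at *Fli1*, an ETS factor of blood and endothelium (40.2 kb in A2a and 15.8 kb in D1), and at *Gfi1*, a repressor in blood cells (28.2 and 18.8 kb). *Zfpm1*, which encodes the GATA partner FOG-1, and *Ldb1*, an adaptor that links LMO proteins to GATA1 and TAL1, had no promoter island in either list and had promoter peaks in both. Enrichment was 6.78-fold at *Zfpm1* and 4.57-fold at *Ldb1* in A2a, and 6.25-fold and 4.54-fold in D1. The adaptor *Lmo2*, which bridges these proteins in blood cells, had neither mark at the promoter of its annotated 5′ end in either list. It was named after its values were seen.

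In the list of 15 heart and endoderm factors, 14 had a promoter island in A2a and 12 in D1, with medians of 31.4 and 22.7 kb, and 3 had a promoter peak in each. Of all protein-coding genes, 21.7% in A2a and 15.3% in D1 had an island, and 58.2% and 55.7% had a peak. *Nr2f2*, a nuclear receptor of atria and veins, had 78.8 kb in A2a and 53.6 kb in D1, and *Hand2*, a helix-loop-helix factor of the right ventricle, had 74.6 and 69.8 kb. These islands were longer than that of *Gata4*. *Mef2c*, which neurons also use, had neither mark at the promoter of its annotated 5′ end in either list, and other starts of the gene were not read. In the list of 11 factors of GABA neurons of the brain stem and spinal cord, 11 had a promoter island in A2a and 11 in D1. These stand beside the same 21.7% and 15.3% of protein-coding genes, and the median island measured 19.8 kb in each list. *Sox14* had 32.8 kb in both, and *Nkx6-1* had 31.8 and 30 kb. *Tal2*, a close relative of *Tal1*, is in both the blood and the GABA neuron list and had an island of 13.4 kb in A2a and 10.0 kb in D1, with no peak. It was named for its kinship to *Tal1*, after its values were seen.

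The list of 9 other proteins with a GATA-type zinc finger includes cofactors and chromatin proteins used in many cell types. Of the 9, 0 had a promoter island in either list, beside 21.7% of protein-coding genes in A2a and 15.3% in D1. A promoter peak marked 7 in A2a and 7 in D1, beside 58.2% and 55.7%, and no difference was tested. *Gatad2a* and *Gatad2b*, subunits of the NuRD complex, had promoter peaks enriched 9.88-fold and 6.02-fold in A2a, and 11.01-fold and 7.51-fold in D1.

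**Figure D4:**
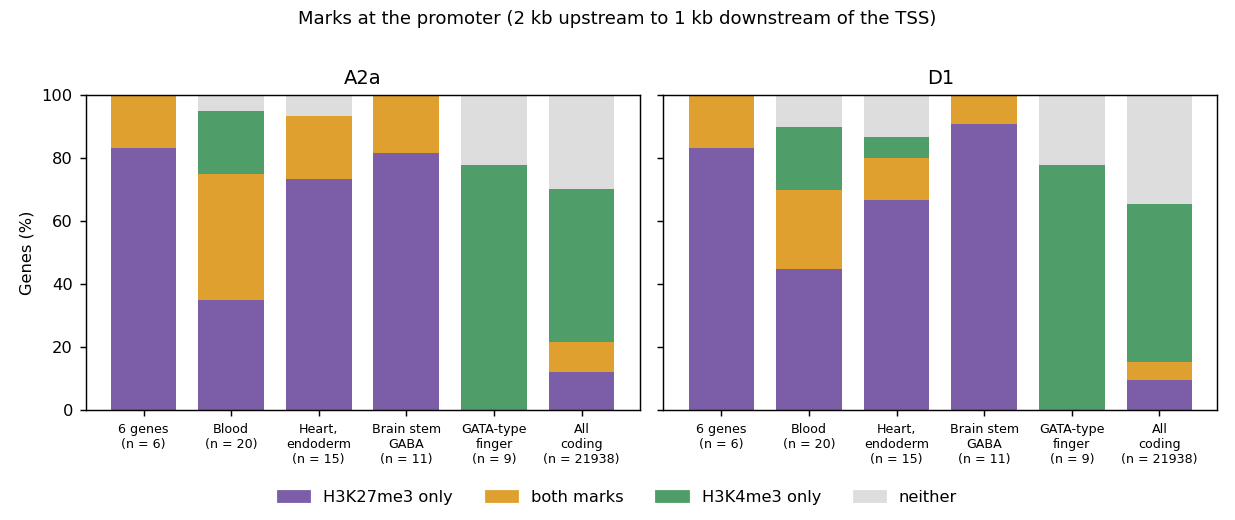
Stacked bars give the percent of genes in each list with an H3K27me3 island only, both marks, an H3K4me3 peak only or neither at the promoter, in A2a and D1 MSNs, for the 6 genes, the 4 partner lists and all protein-coding genes. The 6 genes show an island only at 5 and both marks at 1 (*Tal1*) in each MSN type, and the 9 other GATA-type zinc finger genes show no island.

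Cell types that use *Tal1* or *Gata2*, such as endothelial cells and blood cells, could be present among captured nuclei, so their markers were read at the same promoters. For comparison, 58.2% of all protein-coding genes had a promoter peak in A2a and 55.7% in D1, and 21.7% and 15.3% had an island. Of 9 endothelial markers, 1 had a promoter peak in each list, *Kdr*, the VEGF receptor gene, with a −log10 q of 15.5 in A2a and 6.86 in D1. It also lay in an island of 18.0 kb in A2a and 18.8 kb in D1. Of 9 endothelial markers, 6 had an island in A2a and 5 in D1, and *Pecam1*, *Tie1* and *Ly6c1* had neither mark. Of 5 microglial markers, 2 had a peak in A2a, *P2ry12* (−log10 q of 7.87) and *Tmem119* (12.3), and 0 had one in D1. Among markers of the red blood cell lineage, *Hbb-bt*, *Slc4a1* and *Epb42* had no peak in either list, and *Klf1* had one in each. Of 4 pericyte markers, 2 had a peak in A2a and 1 in D1. Of 4 astrocyte markers 1 had a peak in each list, and of 4 oligodendrocyte markers 2. All 5 A2a markers and all 4 D1 markers had a promoter peak in both lists. The A2a markers with an island numbered 3 in A2a and 5 in D1, while the 4 D1 markers had one in each list, of median length 35.0 kb in A2a and 2.30 kb in D1. The part of other cell types in the *Tal1* and *Gata2* peaks was not tested.

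The genes most like each of the 6 were sought by the Euclidean distance over 4 values per gene, the percentile of its promoter H3K4me3 peak and of its promoter island reads in each MSN type, with a gene that had none set to 0. They are a description and carry no test. The closest to *Gata2* were *Skor1*, *Pitx1* and *Tlx3*, at distances of 0.0119, 0.0249 and 0.0479 percentile points. The closest to *Gata4* were *Foxa2* (0.0120), *Fezf1* (0.0159) and *En1* (0.0199), and the closest to *Gata6* were *Nkx6-1* (0.0241), *Pax5* (0.0296) and *Tbx20* (0.0344). For *Gata3* the nearest were *4930412O13Rik* and *9230102O04Rik*, which share its island, and then *Dmrt3* (0.0220). *Gata5* lay nearest to *Tal2* (0.144), *Cnga1* (0.145) and *Cyp24a1* (0.284). *Tal1*, with its weak peak, had no neighbour as close, and the nearest were *Prdm8* (1.01), *Ripk4* (2.86) and *Bmp3* (3.15). Genes without a peak share the value 0 for both H3K4me3 percentiles, whereas *Tal1* is matched on all 4 values. Its distances therefore do not compare with those of the other genes.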

How the data were processed

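Of 28 samples in the series, 8 (A2a and D1, each with H3K4me3 from Abcam and H3K27me3 from Active Motif, 2 replicates each) were pooled by the authors into 4 lists, and the other 20 were not analysed here. Groups were taken from the sample titles. The submitters' processing notes name bcl2fastq, Bowtie2 2.1.0, SAMtools 0.1.19, Picard, deepTools, MACS2, SICER and the mm10 build. The deposited H3K4me3 columns used were fold enrichment over background and −log10 q values from MACS2, with the summit offset, and the listed q values lay below 0.01. The deposited H3K27me3 lists give the count of reads in each SICER island (window 200 bp, gap 600 bp, FDR 0.01), which is not scaled for depth, and the control used by SICER is not given in the sources used here.

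Genes were taken from GENCODE vM21 (GRCm38), with promoters from 2 kb upstream to 1 kb downstream of the annotated 5′ end, and a peak or island was assigned by an overlap of at least 1 bp. Where several features touched a promoter, the one with the highest −log10 q or most reads was used. For the partner and marker lists only the annotated 5′ end was read, so a mark at another start alone was not counted. Percentiles were taken within each list or over protein-coding genes on chromosomes 1 to 19, X and Y. Intervals are exact Poisson (reads) or exact binomial (ratios) at 95% and cover counting error only. They treat each read as an independent molecule, which any PCR copies left in the counts would not be. The paper states that duplicates were removed with Picard before its later analyses. Because each list pools its replicates, no test across mice was run. Scripts (Python 3.11.15, numpy 2.4.6, scipy 1.17.1, matplotlib 3.10.9) were tested on simulated data. Of 66 promoters of the RefSeq table compared with the genome, 66 were identical.

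The 6 genes, the partner lists and the marker lists were chosen with earlier results of these data known. The genes named were the 6, annotated genes within 50 kb, up to 4 genes of each partner list (those with the longest A2a promoter island and those with none, to which *Lmo2* and *Tal2* were added after their values were seen), marker genes, and the 3 genes nearest to each of the 6 in pattern. Alternatives varied the promoter window, the TSS, the overlap, the window around each gene, the island length and merging, the number of features, the ranking and the scaling. Some values of the partner and marker lists are not reported here.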

Additional observations from a re-analysis of the deposited data

How the results depend on the processing

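Of the values recomputed for the main comparisons, 57 moved by no more than counting error (for counts of genes, 1.5 times), and 25 moved further. The 57 include values that the changed setting could not move. Examples are peak counts when only islands were merged, and D1 values when only the A2a lists were cut to equal numbers. Wider promoters, likewise, could not lower the count of genes with an island. The tally is therefore no measure of how stable the results are. With promoters of 5 kb on either side, the upstream *Gata2* peak was included, so 2 of the 6 genes had a promoter peak and 2 had both marks in A2a, and 2 and 2 in D1, with the *Gata2* peak at percentile 35.9 and 15.7. The median window coverage, 51.2% in A2a and 28.1% in D1 with 50 kb flanks, was 69.04% and 44.97% with 20 kb, 35.0% and 19.3% with 100 kb, 48.5% and 27.7% with islands of at least 2 kb, 60.3% and 34.1% with islands within 5 kb merged, and 48.5% in A2a with equal numbers of islands. Merging also raised the median promoter island to 51.6 kb and 6791.5 reads in A2a, and to 23.9 kb and 2158 reads in D1. The *Tal1* peak stood at percentile 25.2 in A2a and 11.5 in D1 by fold enrichment, and at 73.7 and 13.4 by length. The median A2a to D1 ratio of the 6 genes over that of all shared regions, 0.963, was 0.799 against the list totals, 1.103 in reads per kb, 1.07 with merged regions and 1.04 against regions with at least 500 D1 reads, an alternative chosen after seeing the data, so whether the genes lie above or below the reference depends on the scaling. The cause of the other shifts was not tested.

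No paired analysis was possible because each list pools both replicates. For the same reason no replicate was left out. Peaks and islands below the authors' thresholds are not listed, so a missing feature means only that none passed. Reads outside islands and the depth of the libraries are unknown. Each comparison of H3K27me3 between the MSN types rests on the D1 label of samples whose source name reads A2a.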
